A study of Mus musculus with 11 samples.

Results

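Potassium channel genes were followed here through their DNA methylation in newborn mouse pancreas. Members were the genes on chromosomes 1 to 19 whose symbol begins with Kcn, a letter from a to v and a digit, without Kcnq1, Kcnq1ot1 and Kcnj11. This gave 65 of 24391 promoters and 78 of 25802 gene bodies, and each of the 65 promoters belonged to 1 of the 78 genes. A promoter here covers the 1500 bases before a gene's start and the first 500 bases after it, and a body is the annotated span of the gene. The rule reads symbols and chromosomes, not measured values.

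Pancreata came from C57BL/6N wild type mice at postnatal day 0. The dams of 5 mice (Amphetamine group, 3 females and 2 males) had received amphetamine at 10 mg/kg on embryonic days 14.5, 15.5 and 16.5, and the dams of 6 mice (Saline group, 3 females and 3 males) had received saline. The assay was reduced representation bisulfite sequencing (RRBS): MspI and TaqI cut DNA at CpG-containing sites and bisulfite converts cytosine unless it is methylated. The tables give each region's mean, SD and extremes per group and how many mice had reads there, so the group range stands in for values per mouse. Nothing states which litter a mouse came from, so the p-values treat the mice as independent. If mice of a group were littermates, these p-values could be too small. The whole pancreas was sampled, so that a change in cell makeup and a change in methylation within cells cannot be told apart. RNA was not analysed here, so cell types could not be checked by expression. Among the promoters of 10 acinar enzyme genes, which encode digestive enzymes, 6 had values, with a median methylation of 68.0%. Their group medians were 60.3% in amphetamine-exposed and 71.1% in saline mice, at a median coverage of 27.6 and 35.2. Of these 6, 4 were lower after amphetamine, and 1, Cela3b, had an unadjusted limma p under 0.05, with 51.7% ± 42.3 against 15.5% ± 15.5. Over all autosomal promoters 49.6% were lower and 4.09% had such a p. Bodies of 9 acinar genes had medians of 75.9% in amphetamine-exposed and 73.6% in saline mice, with 4 higher and 5 lower. Bodies of 5 hepatocyte genes had 78.0% and 84.9%, all 5 lower, beside 51.4% of all autosomal genes. None of these bodies had an unadjusted limma p under 0.05. The part of cell types in the results below was not tested. Over autosomal promoters, the median coverage was 242 in amphetamine-exposed and 194 in saline mice, and over the potassium channel promoters it was 306 and 245. Coverage here is the deposited read signal of a region as a mean per group, and whether it is summed over CpG sites is not given in the sources used here.

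Potassium channels let potassium ions pass the membrane and so set its resting potential and end electrical activity. In pancreatic β cells they hold the membrane silent when glucose is low and repolarize it after each action potential, and thereby limit insulin release. The letter after Kcn names the subfamily. Kcna, Kcnb, Kcnc, Kcnd, Kcnh and Kcnq encode voltage-gated pores, and Kcnf, Kcng, Kcns and Kcnv encode subunits that form no working channel alone but modify others. Kcnj encodes inward rectifiers, Kcnk the 2-pore background ("leak") channels, Kcnn, Kcnt and Kcnu channels gated by calcium, sodium or pH, and Kcne small accessory subunits. CpG-rich promoters are generally unmethylated whether or not the gene is active, whereas CpG-poor promoters and the bodies of genes usually carry methylation.

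The bases just upstream of the start of a few members are printed to show their CpG sites, in capitals. They run 5′ to 3′ on the strand of the gene (RefSeq sequences, GRCm38.p6). Kcng3 stands for the unmethylated, CpG-dense promoters, Kcnk5 and Kcns1 for the promoters with the smallest p-values between treatments, and Kcnj13 for a CpG-poor promoter of intermediate methylation. The 200 bases at each of these 4 starts held 33, 14, 16 and 2 CpG sites.
Kcng3, chr17:83631896-83632095, minus strand: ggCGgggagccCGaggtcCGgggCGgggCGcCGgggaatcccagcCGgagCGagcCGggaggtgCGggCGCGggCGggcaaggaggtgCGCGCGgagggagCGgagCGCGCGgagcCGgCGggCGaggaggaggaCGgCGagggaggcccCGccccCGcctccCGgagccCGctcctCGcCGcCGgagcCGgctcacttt
Kcnk5, chr14:20181783-20181982, minus strand: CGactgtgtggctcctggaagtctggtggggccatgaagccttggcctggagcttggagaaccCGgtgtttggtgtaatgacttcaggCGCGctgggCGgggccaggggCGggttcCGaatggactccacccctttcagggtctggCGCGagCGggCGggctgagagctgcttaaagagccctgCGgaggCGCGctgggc
Kcns1, chr2:164171114-164171313, minus strand: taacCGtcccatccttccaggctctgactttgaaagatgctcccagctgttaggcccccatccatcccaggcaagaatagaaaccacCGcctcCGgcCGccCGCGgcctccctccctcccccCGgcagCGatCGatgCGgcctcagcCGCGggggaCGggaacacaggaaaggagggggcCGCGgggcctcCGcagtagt
Kcnj13, chr1:87394730-87394929, minus strand: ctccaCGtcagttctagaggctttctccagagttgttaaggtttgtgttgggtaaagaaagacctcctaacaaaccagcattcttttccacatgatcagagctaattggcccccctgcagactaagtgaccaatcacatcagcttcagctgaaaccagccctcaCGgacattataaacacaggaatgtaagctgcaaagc
The MspI site CCGG occurs 8 times in the stretch of Kcng3, 1 time in that of Kcnk5, 2 times in that of Kcns1 and not in that of Kcnj13. Over the full 2000 bp windows, CCGG was present in 100% of the potassium channel promoters and 99.9% of all autosomal promoters in the table, and the TaqI site TCGA in 76.9% and 82.6%. Both sites read the same on either strand, and they do not overlap each other.

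Most potassium channel promoters were nearly free of methylation. Over the 65 promoters the median level, averaged over all mice with values, was 3.46%, and 45 lay under 10%, 14 between 10% and 50%, and 6 above 50%. The median over 15100 promoters of autosomal protein-coding genes was 3.45%, with 70.2% of them under 10% against 69.2% of the potassium channel promoters. Above 50% stood 14.9% of the protein-coding and 9.23% of the potassium channel promoters. Calcium channel pore genes (Cacna1) had a median promoter level of 5.88% over 7 promoters, and sodium channel pore genes (Scn) 4.76% over 5.

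Gene bodies were far more methylated. The median over the 78 bodies was 47.2%, with 4 under 10%, 39 between 10% and 50%, and 35 above 50%. Bodies of protein-coding genes had a median of 45.4%, but 12.1% of them lay under 10% against 5.13% of the potassium channel bodies. That share depended on gene length. It was 29.0%, 6.81% and 0.175% for protein-coding genes under 10 kb, of 10 to 100 kb and over 100 kb, beside 15.0%, 2.5% and 0.0% of members. Calcium channel pore genes had a median body level of 53.1% over 9 bodies and sodium channel pore genes 76.6% over 9, with 0 bodies under 10% in either. The body exceeded the promoter in 57 of 65 members, with a median difference of 34.8 percentage points, and in 83.8% of protein-coding genes, with a median difference of 23.8 percentage points.

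**Figure D1:**
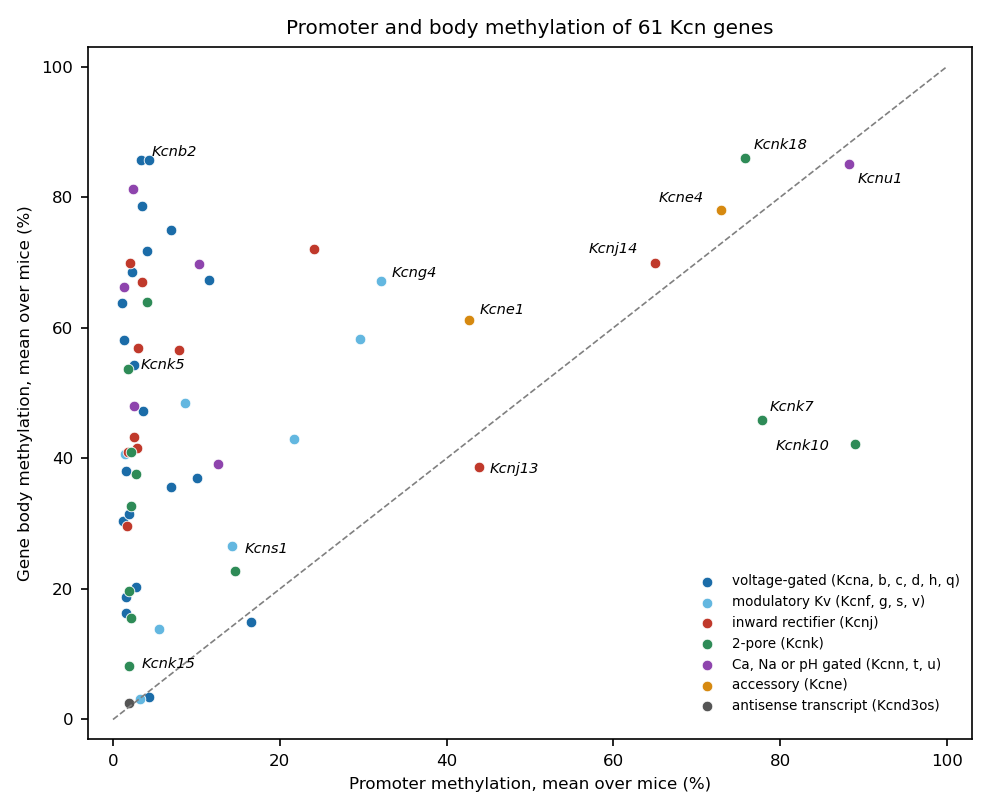
Promoter methylation (x axis, %) against gene body methylation (y axis, %) of 61 members with both, each point the mean over mice with values and coloured by channel class. Most points stand at the left edge, with promoters under 10% and bodies from 2.49% to 85.8%, and 7 lie under the dashed line of equality.

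In the other 8 members the promoter was at least slightly above the body, and 7 of them are described here. For Kcna1, Kcna7, Kcns2, Kcnu1 and Kcnj13 the levels differed by 0.12 to 5.23 percentage points. Kcnk10, a stretch- and lipid-sensitive leak channel, differed by 46.8 percentage points, with 89.0% ± 11.04 (SD, n = 11) in its promoter window and 42.2% ± 2.91 in its body. Kcnk7, a Kcnk member without known current of its own, differed by 31.8 percentage points, but its promoter had values in 9 mice, with 1 mouse at 0% and the others at 100% in each group, and a coverage of only 18 in amphetamine-exposed and 13.7 in saline mice.

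RefSeq lists a pair of starts for Kcnk10, 3.09 kb apart. The promoter window holds the bases printed for the first, whereas those printed for the second lie inside the gene, outside the window and in a CpG island (chr12:98574532-98575379). That island was methylated at 0.704% ± 0.406 (SD, n = 5) in amphetamine-exposed and 1.42% ± 1.95 (SD, n = 6) in saline mice, at a coverage of 745 and 484. The bases upstream of both starts are shown. At the first, the outer 100 of 200 upstream bases held 2 CpG sites, and at the second all 200 held 11. These stretches differ in length, so their CpG counts cannot be set side by side. The printed bases of the first hold no CCGG or TCGA, and the promoter level belongs to the whole window.
Kcnk10, first start, chr12:98578314-98578413, minus strand: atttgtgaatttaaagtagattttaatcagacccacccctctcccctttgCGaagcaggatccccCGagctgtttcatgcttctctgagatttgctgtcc
Kcnk10, second start, chr12:98575128-98575327, minus strand: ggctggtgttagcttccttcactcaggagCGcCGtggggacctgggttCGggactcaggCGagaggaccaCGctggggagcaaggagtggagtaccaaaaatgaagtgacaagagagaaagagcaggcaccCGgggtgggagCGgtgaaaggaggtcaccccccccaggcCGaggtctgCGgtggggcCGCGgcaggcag

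The 6 promoters above 50% were those of Kcnk10, Kcnu1, Kcnk7, Kcnk18, Kcne4 and Kcnj14, singled out after their values were seen. Kcnu1, the pH-gated channel of sperm, had 88.3% ± 10.5 in its promoter and 85.0% ± 2.41 in its body. Kcnk18, a leak channel of sensory neurons, had 75.8% ± 8.87 and 86.0% ± 5.26. Kcne4, an accessory subunit that inhibits several voltage-gated pores, had 72.9% ± 13.3 and 77.97% ± 9.82, and Kcnj14, an inward rectifier, had 65.05% ± 18.5 and 69.9% ± 9.40 (SD, n = 11 for each). None of the 6 promoters overlapped a CpG island in the deposited table. Of the 65 promoters, 45 overlapped such an island and had a median level of 2.46%, and the 20 without an island had 26.6%. The same split gave 2.502% and 49.1% over protein-coding promoters. Across the 65 promoters the level fell with the ratio of observed to expected CpG sites in the window (Spearman's rho = -0.62), as across 15100 protein-coding promoters (rho = -0.54). These are descriptions across genes, which are not replicates and which share mice and libraries.

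At the other end, 4 bodies lay under 10%. These were Kcnd3os, a transcript antisense to Kcnd3, with 2.49% ± 1.69, the modulatory subunit Kcns2 with 3.10% ± 2.26, the voltage-gated Kcna1 with 3.41% ± 1.28 and the leak channel gene Kcnk15 with 8.26% ± 2.24 (SD, n = 11). All 4 span at most 11.4 kb, and Kcna1 and Kcns2 have a single coding exon. The most methylated bodies were those of Kcnv2, a modulatory subunit of photoreceptors, with 91.6% ± 14.6, Kcna10 with 88.8% ± 7.75 and Kcnk18. Body levels rose with gene length across the 78 members (rho = 0.37; 0.23 across 17623 protein-coding genes). The medians were 35.3% for 20 members under 10 kb, 47.2% for 40 of 10 to 100 kb and 69.1% for 18 over 100 kb, beside 29.4%, 44.4% and 60.4% for protein-coding genes. Annotated regions of some members overlap: the listed span of Kcna5, 166 kb, contains the whole of Kcna1, and the promoters of Kcnd3 and Kcnd3os share 374 bases. The listed span of Kcnd3os also contains the whole promoter window of Kcnd3, which had 2.46% ± 1.79 (SD, n = 11). Coverage was 550 and 434 in the Kcnd3os body and 534 and 415 in that promoter, in amphetamine-exposed and saline mice. The low body level of Kcnd3os is therefore not independent of the Kcnd3 promoter.

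Kcnd3os, a noncoding transcript, is left out of the classes that follow. By subfamily, promoters of the voltage-gated pore genes were the most evenly low. The median of the 25 promoters of Kcna, Kcnb, Kcnc, Kcnd, Kcnh and Kcnq was 3.36%, and none was above 50%. Kcnc1 and Kcnc4, fast-repolarizing channels, had 1.26% and 2.72%, and the A-type channels Kcnd2 and Kcnd3 had 4.36% and 2.46%. In Kcna the lowest was Kcna3 with 1.502% ± 2.17 and the highest Kcna7 with 16.5% ± 3.61. In Kcnh the lowest was Kcnh1 with 1.11% ± 1.16 and the highest Kcnh6 with 11.5% ± 7.14. Kcnb2 had 3.36% ± 2.23. In Kcnq the lowest was Kcnq5 with 1.34% ± 1.54.

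The modulatory subunits had higher promoter levels, with a median of 11.4% over 8 promoters. Kcng3 was at 1.47% ± 0.962 whereas Kcng4 was at 32.1% ± 27.9, Kcns2 was at 3.22% ± 1.94 whereas Kcns1 was at 14.2% ± 9.43, Kcnf1 was at 5.56% ± 4.57 and Kcnv1 at 29.6% ± 17.1. The inward rectifiers had a median of 2.99% over 11 promoters, from 1.71% in Kcnj12 to 65.05% in Kcnj14. The leak channels had a median of 2.51% over 12 promoters, with the lowest level in Kcnk5, and included 3 of the 6 promoters above 50%. The 6 promoters of Kcnn, Kcnt and Kcnu had a median of 6.403%, with Kcnn1 at 1.27% ± 3.37, Kcnn4 at 12.6% ± 18.9 over 8 mice, Kcnt2 at 2.38% ± 2.80 and Kcnt1 at 2.47% ± 2.75. Both measured Kcne promoters were methylated, Kcne1 at 42.7% ± 11.2 and Kcne4 as above.

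**Figure D2:**
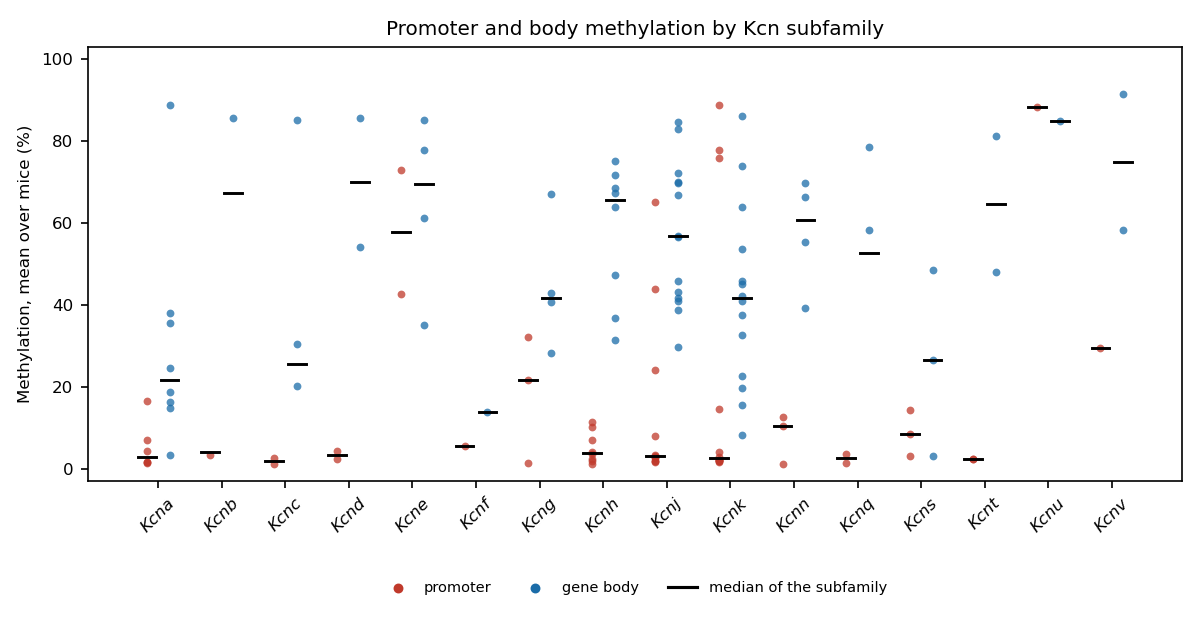
Promoter (red) and gene body (blue) methylation of single members (y axis, %, mean over mice with values) by subfamily, with black bars at the median over all members of the subfamily, 4 of which are not drawn as points. Kcna and Kcnc bodies have medians of 21.7% and 25.7%, Kcnh and Kcnd bodies of 65.6% and 70.0%, and the points of most subfamilies overlap.

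Body levels ordered the subfamilies differently. Among those with at least 3 bodies, Kcna had the lowest median (21.7% over 8 bodies), followed by Kcnc (25.7% over 4), Kcns (26.5% over 3), Kcnk (41.6% over 14), Kcng (41.8% over 4), Kcnq (52.7% over 4), Kcnj (56.8% over 14), Kcnn (60.8% over 4), Kcnh (65.6% over 8) and Kcne (69.6% over 4). Within Kcna the bodies ran from 3.41% to 88.8%, so that neighbours in this order were not set apart by their members. Kcna members mostly have a single coding exon, and the 18 single-exon members of all subfamilies had a median body level of 40.6% against 48.0% for 59 with several coding exons. Over protein-coding genes the same split gave 34.1% and 45.9%. Exon number was not separated from gene length.

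CpG islands were read in the same way. The 46 islands at potassium channel promoters had a median of 2.33%, and 44 of them lay under 10%. The 32 islands inside the genes but outside the promoters split into 18 under 10% and 10 above 50%, with a median of 8.35%. For protein-coding genes, 97.0% of promoter islands and 65.8% of islands inside genes lay under 10%, and 23.5% of the latter lay above 50%.

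Tiles of 5 kb show the extent of the low region. For tiles centred within 2.5 kb of the gene start the median was 8.49% over 73 members, and it rose to 75.2% at 2.5 to 10 kb into the gene and 81.7% at 20 to 50 kb. On the upstream side it was 71.1% at 2.5 to 10 kb. The values of protein-coding genes at the same distances were 8.73%, 76.6%, 81.8% and 75.5%. Over the 617 tiles centred in the members, 536 were above 50% and 31 under 10%.

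**Figure D3:**
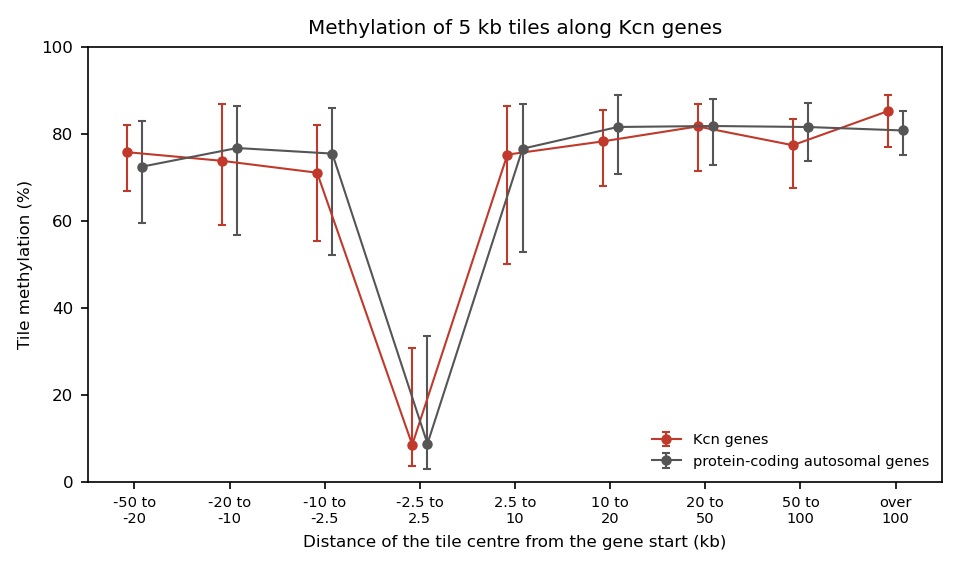
Methylation of 5 kb tiles (y axis, %) by distance of the tile centre from the gene start (x axis, kb, negative values upstream), with points at the median over genes and bars over the middle 50% of genes. Potassium channel genes (red) dip to 8.49% at the start and protein-coding genes (grey) to 8.73%, and both stand above 70% in every other distance class.

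Channels of the pancreas were looked at by a list. Kcnb2 encodes a delayed rectifier, and its body stood at 85.7% ± 3.46. Kcnk16, a leak channel of islets, had a body level of 73.9% ± 11.7. Kcnk3 had 1.95% ± 1.22 in its promoter and 19.6% ± 2.63 in its body, and Kcnk5 had 1.75% ± 2.34 and 53.7% ± 10.3. Among calcium-activated channels, Kcnn3 had 10.3% ± 4.45 and 69.8% ± 2.62, and the body of Kcnn4 was at 39.2% ± 4.54 (SD, n = 11).

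The remaining channels of this list were more varied. Kcnh2 had 1.89% ± 1.41 in its promoter and 31.4% ± 2.63 in its body, and Kcnh6 had 11.5% ± 7.14 and 67.4% ± 7.49. Among the rectifiers, the promoters of Kcnj5, Kcnj6 and Kcnj10 lay at 2.99% ± 3.06, 1.996% ± 3.21 and 7.93% ± 7.73, and their bodies at 56.95% ± 9.71, 70.0% ± 2.71 and 56.6% ± 7.12. Kcnj15 had a promoter level of 24.0% ± 20.9 and a body level of 72.1% ± 4.96, and the body of Kcnj16 was at 82.9% ± 7.08. The accessory subunit gene Kcne1 had 42.7% ± 11.2 in its promoter and 61.2% ± 11.5 in its body. Kcnk9, an imprinted leak channel gene not on this list, was at 4.06% ± 2.44 in its promoter and 63.9% ± 7.05 in its body. In none of these regions except the Kcnk5 promoter did the treatment groups differ with an unadjusted limma p under 0.05.

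The first question of the design was whether prenatal amphetamine altered methylation. A moderated test (limma) was rebuilt from group means, SDs and mouse numbers, over all regions of a table, with two-sided p-values adjusted by Benjamini-Hochberg. No covariate was fitted, so the sexes were pooled here and the treatments were pooled in the comparison of the sexes. A treatment effect that differs between the sexes was not tested. No potassium channel promoter passed an adjusted p of 0.05 (lowest 0.903), nor did a body (lowest 0.987), and over all autosomal regions the share was 0.0% for promoters and 0.0% for bodies. At an unadjusted p under 0.05 stood 3 of 65 promoters, 1 higher and 2 lower in amphetamine-exposed mice, beside 4.09% of all autosomal promoters. Of the bodies, 2 of 78 did, 1 in each direction, beside 4.12% of all autosomal genes. Both shares are near the background and are no result about these genes. The 95% confidence interval reached a median of 3.66 percentage points to either side of a promoter's difference (from 1.47 to 59.5). For a body it reached 6.39 (from 1.96 to 39.5). True differences smaller than this reach could go uncalled with these mice, and after adjustment larger ones could too.

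**Figure D4:**
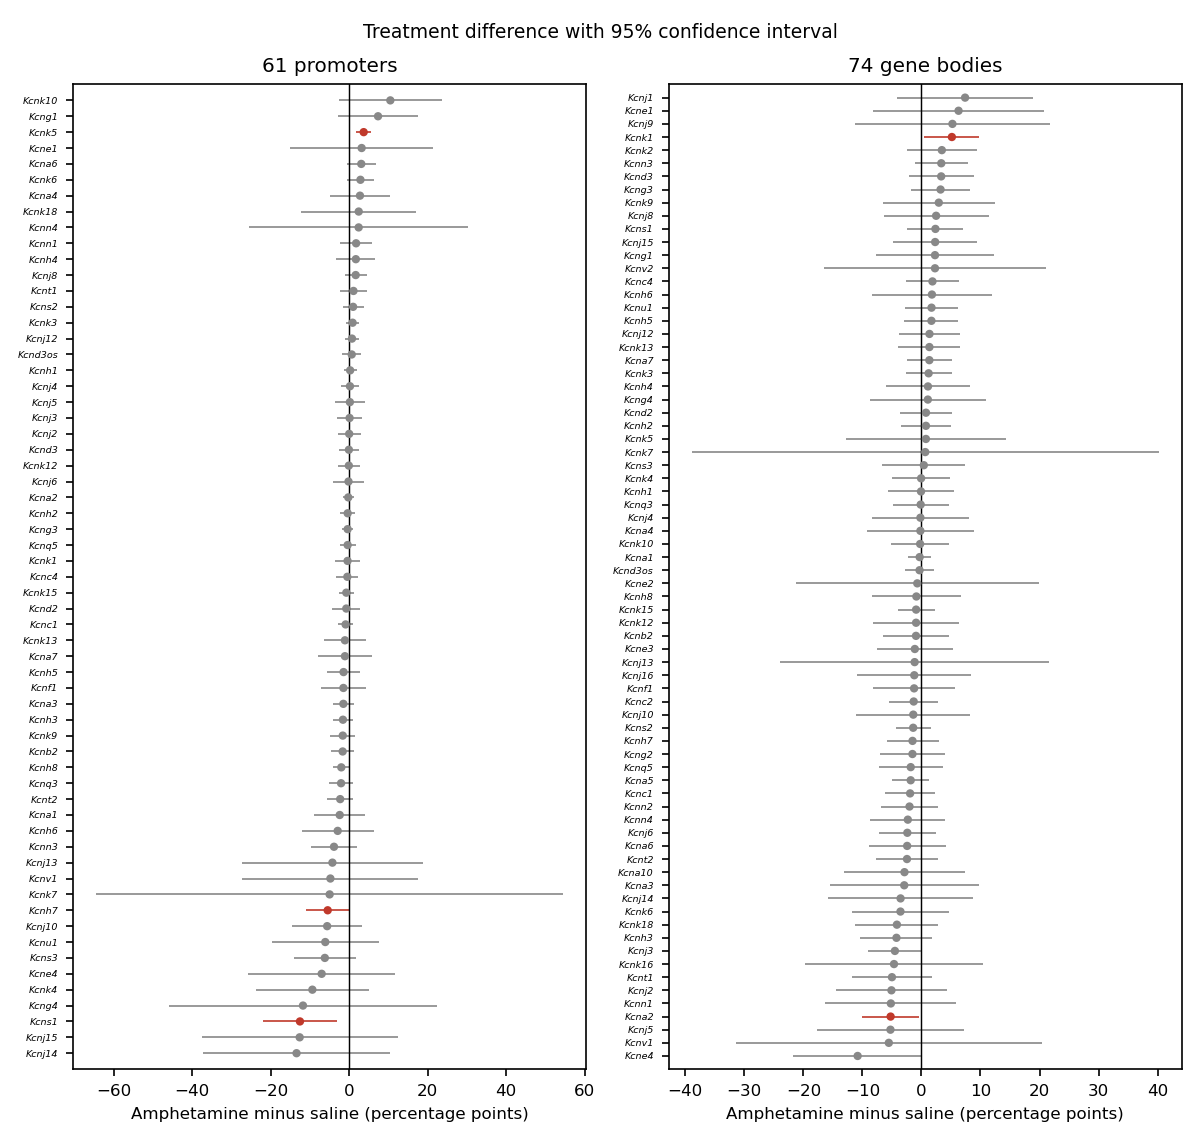
Difference in methylation, amphetamine minus saline (x axis, percentage points), of 61 promoters (left) and 74 bodies (right) with 95% confidence intervals from the moderated test, sorted by size. Red marks an unadjusted p under 0.05, which 3 promoters and 2 bodies reach, and most intervals include 0.

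The promoter with the smallest p was that of Kcnk5, an acid-sensitive leak channel (gene at chr14:20140058-20181782, minus strand). In amphetamine-exposed mice it ranged from 2% to 7.12% with a mean of 3.76% ± 2.11 (SD, n = 5). In saline mice it ranged from 0% to 0.491% with a mean of 0.0819% ± 0.201 (SD, n = 6), and 5 of the 6 mice were at 0%. The groups did not overlap, and the difference was 3.68 percentage points (95% interval 1.77 to 5.59; limma adjusted p = 0.903). With all 11 mice measured, the exact two-sided permutation p of such a separation is 0.00433, the smallest that 462 splits of the mice allow, and 0.407% of autosomal promoters were separated like this. It was the 1 non-overlapping case among 61 potassium channel promoters with all mice measured. Coverage was modest, 135 in amphetamine-exposed and 117 in saline mice. The CpG island at this start, whose CpG-rich bases are printed above (chr14:20181556-20182044), showed less of it: 4 of 5 amphetamine-exposed mice were at 0% and the highest at 4.76%, and all 5 saline mice with values were at 0% (limma adjusted p = 0.927).

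The promoter of Kcns1, a modulatory subunit of sensory neurons (chr2:164163619-164171113, minus strand), was lower after amphetamine. It ranged from 0% to 20.2% with a mean of 7.38% ± 8.30 (SD, n = 5) in amphetamine-exposed mice and from 14.3% to 28.6% with a mean of 19.9% ± 6.06 (SD, n = 6) in saline mice. The ranges overlapped. The difference was -12.6 percentage points (95% interval -22.0 to -3.15; limma adjusted p = 0.951), at a coverage of 91.2 and 71.3. The body of the gene, with a coverage of 1575 and 882, had 27.8% ± 3.09 and 25.4% ± 3.52, a difference in the other direction within the spread between mice.

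Kcnh7, which encodes a voltage-gated channel of the ERG group, was the third promoter with an unadjusted p under 0.05 (chr2:62693414-63184287, minus strand). Its mean was 3.99% ± 3.36 (range 0.619% to 8.96%) in amphetamine-exposed and 9.49% ± 4.90 (range 0% to 13.7%) in saline mice (limma adjusted p = 0.951). The lowest saline mouse lay below every amphetamine-exposed one. The CpG island and the 5 kb tile at this start hold the same group values as the promoter, so they are the same measurement counted again. For these same values the unadjusted limma p was 0.0497 among promoters but 0.066 among islands.

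The next promoters in each direction did not reach this level. Kcna6 had 3.06% ± 4.21 in amphetamine-exposed mice against 0% in the 5 saline mice with values, and Kcnk6 had 3.69% ± 4.26 against 0.838% ± 0.999. Kcnh8 had 1.21% ± 1.04 against 3.24% ± 1.91. The ranges overlapped in all 3, and the limma adjusted p was 0.951 for each.

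Among gene bodies, Kcnk1, a leak channel with low current, was higher after amphetamine (chr8:125995102-126030683, plus strand). It ranged from 12.7% to 22.8% with a mean of 18.4% ± 4.40 (SD, n = 5) against 10.2% to 17.45% with a mean of 13.2% ± 2.63 (SD, n = 6) in saline mice (limma adjusted p = 0.987). Kcna2, an axonal voltage-gated channel (chr3:107101567-107106879, plus strand), was lower, with 13.4% ± 2.38 (range 10.3% to 16.0%) against 18.7% ± 4.45 (range 12.5% to 23.6%; limma adjusted p = 0.987). Both pairs of ranges overlapped. Kcne4 (72.1% ± 10.2 against 82.9% ± 6.81), Kcnj3 (39.1% ± 2.58 against 43.6% ± 3.03), Kcnn3 (71.6% ± 2.53 against 68.3% ± 1.56) and Kcng3 (42.4% ± 4.28 against 39.1% ± 2.21) came next, with a limma adjusted p of 0.987 for each. No potassium channel body had groups that did not overlap, beside 0.322% of autosomal genes.

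**Figure D5:**
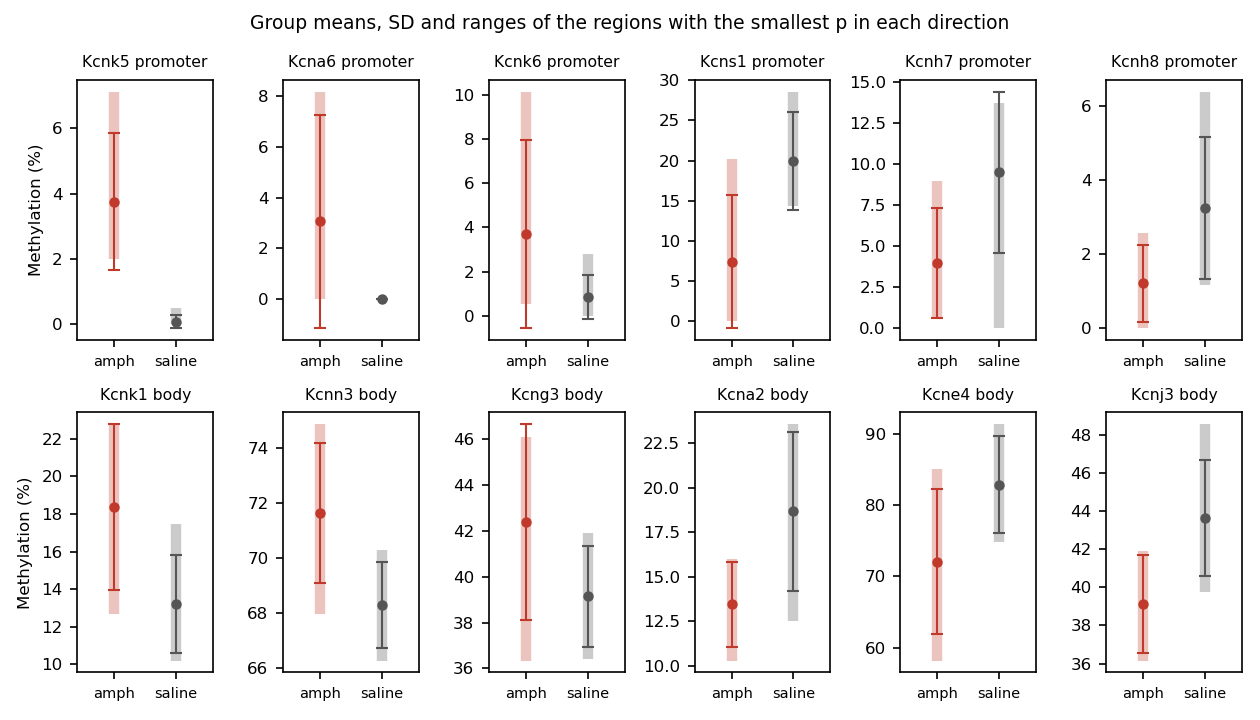
Methylation (y axis, %, a separate scale in each panel that need not start at 0) of the 3 higher and 3 lower promoters (top) and bodies (bottom) of smallest p, with points at group means, thin bars for the SD and broad bars from the lowest to the highest mouse. The Kcnk5 promoter is the panel without overlap, from 2% to 7.12% against 0% to 0.491%.

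The direction of the promoter differences was uneven, without a test attached to it. Of the 65 promoters, 42 had a lower mean in amphetamine-exposed mice (64.6%, beside 49.6% of all autosomal promoters), and the median difference was -0.43 percentage points against 0.00. In the voltage-gated pore genes 19 of 25 were lower, in the modulatory subunits 6 of 8, in the rectifiers 6 of 11, in the leak channels 7 of 12, in Kcnn, Kcnt and Kcnu 3 of 6 and in Kcne 1 of 2. Of the bodies, 47 of 78 were lower (60.3%, beside 51.4% of all autosomal genes). In the same order of classes these were 18 of 28, 4 of 10, 9 of 14, 7 of 14, 5 of 7 and 3 of 4. These genes share mice, and coverage was higher in the amphetamine group. Its part in the direction was not tested.

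Islands and tiles gave no adjusted call either. Of the islands at promoters 0 of 43 tested, and of those inside genes 2 of 30, had an unadjusted p under 0.05, beside 3.7% of autosomal islands. Both of the latter lay in Kcnn1, a small-conductance calcium-activated channel (chr8:70842049-70857008, minus strand). At chr8:70842584-70842831 the island was at 0% in the 3 amphetamine-exposed mice with values and at 80.0% ± 18.3 (range 66.7% to 100%, n = 5) in saline mice. Coverage there was 7.6 and 17.5, and 3 mice had no value (limma adjusted p = 0.866). At chr8:70852630-70853049 all 5 amphetamine-exposed mice were at 100% and the saline mice at 88.0% ± 8.36 (range 80.0% to 100%; limma adjusted p = 0.927). The directions of these neighbours were opposite, and the body of Kcnn1 as a whole had 63.5% ± 6.31 against 68.7% ± 10.2.

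Of the 590 tested tiles centred in the members, 24 (4.07%) had an unadjusted p under 0.05, 11 higher and 13 lower, beside 4.17% of autosomal tiles, and the lowest adjusted p was 0.962. The smallest p was 245 kb into Kcnb2, where the tile had 85.7% ± 7.64 (SD, n = 5) in amphetamine-exposed and 99.1% ± 1.45 (SD, n = 5) in saline mice (limma adjusted p = 0.962).

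The second comparison of the design was between the sexes, over the same 11 mice, 6 female and 5 male. On the autosomes an adjusted p under 0.05 was found for 0.0312% of promoters and 0.0415% of bodies, and no potassium channel region was among them. That adjustment ran over whole tables, sex chromosomes included, and a fit on autosomes alone left 1 promoter and 2 bodies over all genes. Unadjusted, 2 of 65 promoters (beside 4.57% of autosomal promoters) and 5 of 78 bodies (beside 5.2% of autosomal genes) had p under 0.05. Non-overlapping groups were found in 0.462% of autosomal promoters and 0.449% of autosomal genes, and in none of the members.

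Kcnk1 had the smallest sex p among promoters. Female mice ranged from 0% to 1.59% with a mean of 0.265% ± 0.648 (SD, n = 6), and 5 of the 6 were at 0%. Male mice ranged from 1.47% to 6.67% with a mean of 4.45% ± 2.06 (SD, n = 5). The 2 ranges met only between 1.47% and 1.59%, and the difference was -4.19 percentage points (limma adjusted p = 0.0853 over the whole table and 0.926 on autosomes alone). Between treatments the same promoter had 1.93% ± 2.05 and 2.36% ± 3.15. Kcnn4, the intermediate-conductance calcium-activated channel, had 25.2% ± 20.3 in 4 females and 0% in 4 males, at a coverage of 28.3 and 30.0 (limma adjusted p = 0.608). Both were named after their values were seen.

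Bodies with a sex p under 0.05 included Kcne2, Kcna4, Kcnj1 and Kcnk6, also named after their values were seen. Kcne2 had 95.2% ± 8.27 in females and 73.3% ± 14.9 in males at a coverage of 8.67 and 4.6. Kcna4 was higher in females with 39.4% ± 5.49 against 31.2% ± 5.53. Kcnj1 (79.6% ± 7.05 against 90.7% ± 8.92) and Kcnk6 (29.4% ± 2.64 against 36.8% ± 7.34) were lower in females. Their adjusted limma p-values lay between 0.467 and 0.79 over the whole table, and the lowest was 0.874 on autosomes alone.

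Partners of these channels were read from a list of 21 genes, which holds β, KChIP and BK channel subunits, sulfonylurea receptors and other associated proteins. None of 20 promoters and none of 21 bodies had an unadjusted limma p under 0.05 between treatments. The shares were 4.09% over all autosomal promoters and 4.12% over all autosomal genes, so this is no result about the partners. Abcc8, the sulfonylurea receptor of the β-cell channel that closes on glucose metabolism, had a promoter level of 1.44% ± 2.72 and a body level of 57.2% ± 3.75, and Kcnma1, the large-conductance calcium-activated channel, had 1.76% ± 2.03 and 64.99% ± 3.19 (SD, n = 11).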

How the data were processed

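RRBS libraries (MspI and TaqI, single-end reads of 50 bp) of 11 pancreata were processed by the authors with the NextFlow methylseq workflow (Bismark alignment, genome mm10), and RnBeads gave the region summaries. The labels also name limma and methylKit. Versions are not given in the sources used here, apart from that of the pipeline image. The deposited methylation values are group means, given as a fraction from 0 to 1 and printed as percent. The deposited coverage is a signal averaged over the mice of a group, not normalised for depth; whether it is summed over CpG sites is not given in the sources used here. Columns of the authors' own comparison (difference, log2 quotient, p-value, adjusted p-value and rank) were not used.

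From means, SDs and mouse numbers, limma's moderated test (limma 3.58.1 in R 4.3.3, squeezeVar with a trend on mean methylation) was fitted over each whole table on regions with at least 3 mice per group and an SD above 0, and was tested on simulated data. A mouse without reads in a region drops out of it. Levels are means over mice. Depth per mouse was not analysed here, and the number of mice and the coverage limit precision. Promoter windows matched the gene starts in 99.97% of 20371 cases, and all 19 autosomes of the tables fit GRCm38. Gene types and exons came from GENCODE by gene ID (78 of 78 matched), and 57 members had a RefSeq promoter sequence. Tiles were assigned by their centre. Python 3.11.15, numpy 2.4.6, pandas 2.3.3 and scipy 1.17.1 were used.

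The genes named are members called or separated in either comparison, and the 3 higher and 3 lower of smallest p. Also named are the highest and lowest promoter of each subfamily with coverage of at least 10, a list of pancreatic channels and Kcnk9. Other members were named after their values were seen. These include the least and most methylated bodies and the promoters above their bodies. Counts and medians cover all members, but 4 of them are not reported here one by one. Members and lists were chosen with earlier results of these data known. Alternatives were no variance trend, values in all 11 mice, coverage of at least 10, an SD above 0 in both groups, autosomes alone, saline mice alone, and trimmed means.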

Additional observations from a re-analysis of the deposited data

Results flagged for a closer look

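In 27 of 193 groups examined, 1 mouse stood apart from the others of its group by Dixon's criterion. With normally distributed values, chance alone flags about 1 in 20 groups. That rate need not hold here, since the groups share mice and many of the values are near 0% or 100%. Where all mice but 1 are at the same value, the group is flagged however small the gap. The ratio is the gap of that mouse to its nearest neighbour over the whole range of the group, and is given as the lowest value that the number of mice, mean, SD, lowest and highest allow.

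Among promoters in amphetamine-exposed mice, the ratio was 0.854 for Kcna7, 0.739 for Kcng4, 0.744 for Kcnj6, 0.857 for Kcnk18, 1.0 for Kcnk7, 1.0 for Kcnn1, 0.744 for Kcnn4 and 0.8 for Kcnq5. In saline mice it was 0.642 for Kcnh7, 0.781 for Kcnj6, 1.0 for Kcnk5, 0.65 for Kcnk6, 1.0 for Kcnk7 and 1.0 for Kcnn1. For the Kcnk5 promoter this is the single saline mouse above 0%, at 0.491%. In female mice the Kcnk1 promoter had 1.0, from the single female above 0%, at 1.59%. The promoter of Abcc8 had 0.858 in amphetamine-exposed and 0.834 in saline mice.

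Among gene bodies in amphetamine-exposed mice, the ratio was 0.732 for Kcna1, 0.878 for Kcnj15 and 0.731 for Kcnk15. The body of Kcnv2 had 0.889 in saline mice, where the lowest mouse was at 50.1%, and that of Kcne2 had 1.0 in male mice.

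Among CpG islands, that inside Kcnk10 had 0.849 in saline mice, with the highest mouse at 5.37%. In amphetamine-exposed mice the Kcnk5 promoter island had 1.0. The Kcnn1 promoter island had 1.0 in both treatment groups, and the Kcns1 promoter island had 0.667 in saline mice.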

How the results depend on the processing

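No potassium channel promoter, body, island or tile passed an adjusted p of 0.05 in any of the 5 alternative fits. On autosomes alone, autosomal calls between sexes over all genes fell from 7 to 1 promoters and from 10 to 2 bodies, and the lowest adjusted p of a member promoter rose from 0.0853 to 0.926. Counts at an unadjusted p under 0.05 moved by over 1.5 times in a few. Between treatments, bodies went from 2 to 4 without the variance trend. Islands of members went from 2 to 4 without the trend, to 1 with values in all 11 mice, to 1 with coverage of at least 10, and to 0 with an SD above 0 in both groups. Between sexes, promoters went from 2 to 1 with values in all 11 mice and to 1 with an SD above 0 in both groups, since Kcnn4 then drops out. The Kcnk5 promoter stayed the 1 non-overlapping member at coverage of at least 10. The median level was 4.12% for promoters and 48.2% for bodies in saline mice alone. Without the lowest and highest mouse of each group, 5 small uncalled differences changed sign (promoters of Kcnd3 and Kcnj6, bodies of Kcna1, Kcnh2 and Kcnv2) and none moved by over 1 SD. Leaving out each mouse was not run, since values per mouse were not analysed here. No paired analysis was possible because the labels give the groups no shared replicate numbers.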
